A study of Mus musculus with 12 samples.

Results

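The genes examined were 6 that encode the mouse zona pellucida or act at the meeting of sperm and egg: Zp1, Zp2, Zp3, Astl, Izumo1r and Cd9. They were picked by gene symbol, with earlier results of these data known, and each symbol matched 1 of the 55385 gene models of one deposited table and 1 of the 55401 models of the other. All 6 passed the filter on low values, which asked for 1 TPM or more in 2 or more of a table's libraries (TPM is a transcript level per length, scaled so that every library has the same sum). RNA-seq libraries, 12 in all and 2 per group, had been made from mouse oocytes to compare oocytes with and without Polycomb repressive complexes at the start of growth. Ovaries taken on postnatal day 6 gave the non-growing oocytes and those taken on day 7 the growing ones, so stage and age cannot be told apart. In the PRC2 table, control oocytes were Eed F/+; Ddx4-Cre and conditional knockout (cKO) oocytes were Eed F/-; Ddx4-Cre, both at both stages. In the PRC1 table, all oocytes were growing, the control was labelled Ring1-/-; Rnf2 F/+; Ddx4-Cre, and the cKO was labelled Ring1-/-; Ring1 F/-; Ddx4-Cre. Both PRC1 groups thus lacked Ring1, and the floxed gene of the cKO may have been meant as Rnf2. All 12 libraries carried Ddx4-Cre, which recombines in germ cells, and the PRC2 and PRC1 controls kept 1 wild-type allele of Eed and of Rnf2, respectively, beside a floxed one open to the Cre. No label states whether replicate libraries were made from different animals, so p-values measure only the spread between these libraries.

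The zona pellucida is the glycoprotein coat that an oocyte secretes around itself as it grows. In the mouse it is built from ZP1, ZP2 and ZP3, whose genes are switched on together by the oocyte transcription factor FIGLA, a basic helix-loop-helix protein that binds E-box letters in zona gene promoters. After fertilization, the protease ovastacin, made from Astl and stored in cortical granules, cuts ZP2 so that further sperm do not bind, while JUNO (Izumo1r) and CD9 stand on the egg membrane, where JUNO binds the sperm protein IZUMO1 and CD9 is needed for fusion.

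In GRCm38 with GENCODE vM21, Zp3 lies on chromosome 5 from 135980099 to 135988624 on the plus strand and its principal transcript has 8 exons. Zp2 lies on chromosome 7 from 120126772 to 120145291 on the minus strand with 18 exons, and Zp1 on chromosome 19 from 10914287 to 10920632 on the minus strand with 12 exons. Astl lies on chromosome 2 from 127338639 to 127357651 on the plus strand with 9 exons. Izumo1r lies on chromosome 9 from 14885814 to 14903949 on the minus strand with 5 exons, and Cd9 on chromosome 6 from 125460266 to 125494791 on the minus strand with 8 exons. Cd9 was the only one that other gene models overlapped. These were Gm28809, an antisense model at no more than 0.22 TPM, and Gm26728 at no more than 2.66 TPM. Gm26728 and the pseudogene Cd9-ps were also the only other genes that matched a principal transcript of the 6 over at least 100 nt at 90% identity or more, and Cd9-ps reached 0.09 TPM. The sources used here do not say how reads shared between such genes were assigned, so the Cd9 values are uncertain to that extent.

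Promoter sequences are shown for 4 of the genes because FIGLA acts through E-boxes, here the letters CANNTG, and because these genes differ in how their levels moved with growth. The sequences are RefSeq's for GRCm38.p6, run from 250 bases before the start of transcription to 50 bases after it, and are written 5' to 3' on the gene's strand with every CANNTG in capitals. The tables used here held entries for Zp3, Astl (2 start sites), Izumo1r and Cd9, and Zp1 and Zp2 are named only.
Zp3, chr5:135979855-135980154, plus strand: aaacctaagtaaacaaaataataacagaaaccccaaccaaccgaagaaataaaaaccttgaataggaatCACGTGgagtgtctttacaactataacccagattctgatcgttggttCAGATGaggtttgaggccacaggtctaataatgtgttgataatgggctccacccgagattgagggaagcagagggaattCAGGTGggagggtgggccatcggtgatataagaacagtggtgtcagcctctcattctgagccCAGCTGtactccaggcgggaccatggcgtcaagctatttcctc
Astl, chr2:127341386-127341685, plus strand: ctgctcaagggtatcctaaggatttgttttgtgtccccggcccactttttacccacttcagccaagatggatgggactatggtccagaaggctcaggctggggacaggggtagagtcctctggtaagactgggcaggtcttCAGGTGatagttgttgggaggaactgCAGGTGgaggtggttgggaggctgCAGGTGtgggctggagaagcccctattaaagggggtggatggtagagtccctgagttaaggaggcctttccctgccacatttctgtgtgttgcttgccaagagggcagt
Izumo1r, chr9:14903718-14904017, minus strand: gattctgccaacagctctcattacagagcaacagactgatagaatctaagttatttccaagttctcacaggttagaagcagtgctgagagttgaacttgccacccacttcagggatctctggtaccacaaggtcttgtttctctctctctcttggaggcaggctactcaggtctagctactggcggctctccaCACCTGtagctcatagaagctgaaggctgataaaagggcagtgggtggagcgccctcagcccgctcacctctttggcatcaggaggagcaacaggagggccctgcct
Cd9, chr6:125494711-125495010, minus strand: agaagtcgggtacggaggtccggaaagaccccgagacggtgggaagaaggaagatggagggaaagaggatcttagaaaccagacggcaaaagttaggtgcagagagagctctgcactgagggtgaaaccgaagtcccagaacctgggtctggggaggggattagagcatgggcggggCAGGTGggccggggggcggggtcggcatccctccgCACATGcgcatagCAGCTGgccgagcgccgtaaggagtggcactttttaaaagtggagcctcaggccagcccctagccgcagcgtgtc
The Zp3 promoter held 4 CANNTG matches, at positions -181, -134, -55 and 8 from the start site, and the first of them read CACGTG. The Astl promoter shown held 3, all CAGGTG, at -109, -83 and -59. The promoter of the other Astl start site, 127338389 to 127338688 on chromosome 2, held none. Izumo1r had 1 match at -57 and Cd9 had 3, at -73, -38 and -25. CANNTG reads the same on both strands, and 72.3% of 32841 mouse promoters of the same length held it at least once, while CACGTG was in 7.15%. The letters TATAAA, found in 13.6% of promoters when searched on both strands, were in none of the 5 promoters. The observed over expected CpG ratio was highest for Cd9 at 0.689, against 0.439 for Zp3, 0.146 for Izumo1r, 0.0480 for the Astl promoter shown and 0.183 for the other. Of the 32841 promoters, 70.1%, 54.1%, 20.4%, 5.81% and 26.2% lay at or below these ratios, in the same order. A match is a description of these letters and was not tested as a binding site.

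The libraries matched their labels where that could be checked. Eed was at 9.64 to 12.1 TPM in the 4 PRC2 cKO libraries and at 60.5 to 90.5 TPM in the 4 PRC2 controls. Ring1 was at no more than 0.02 TPM in all 4 PRC1 libraries. Rnf2 was at 59.2 and 53.8 TPM in PRC1 control and at 87.8 and 61.4 TPM in PRC1 cKO, so its level did not check the PRC1 cKO label. The 7 oocyte markers summed to between 1175 and 6887 TPM in every library. Models that GENCODE classes as TEC took 2.26% to 2.57% of TPM in non-growing libraries, 23.3% to 25.9% in growing PRC2 libraries, 20.9% and 22.5% in PRC1 control and 11% and 14.9% in PRC1 cKO, and since TPM sums to a fixed total this share moves all other values. TPM keeps no sequencing depth, so depth is unknown and no counting interval is given. In bulk libraries, fewer cells of a type and less RNA per cell cannot be told apart.

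Zp2 and Zp3, but not Zp1, were among the most abundant transcripts of the oocyte already before growth. Zp3, the zona protein whose loss leaves mouse eggs with no zona, ranked 19 among protein-coding genes in both PRC2 control non-growing libraries and 5 and 6 in the growing ones. Zp2, which carries the sperm-binding region, ranked 26 and 22 before growth and 13 and 14 after it. Zp1, which cross-links the zona filaments, ranked 423 and 404 before growth and 45 and 47 after it. Among all gene models, Zp3 ranked 29 and 28 before growth and 21 and 23 after it. There Zp2 ranked 37 and 32 before growth and 33 and 34 after it. Zp1 went from 496 and 473 to 82 and 83. TPM is a level per transcript length, so levels of different genes can be compared. In PRC2 control non-growing oocytes the order of mean TPM was Zp3, Zp2, Cd9, Zp1, Astl and Izumo1r, and no 2 neighbours in it overlapped. In PRC2 control growing oocytes it was Zp3, Zp2, Zp1, Cd9, Astl and Izumo1r, again without overlap, so Zp1 stood below Cd9 before growth and above it after. Together Zp1, Zp2 and Zp3 made up 0.458% and 0.479% of TPM in the control non-growing libraries and 1.08% and 1.04% in the control growing libraries.

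The mRNA of 5 of the 6 genes took a larger share of TPM in growing than in non-growing oocytes. In PRC2 control, Zp3, Zp1, Zp2, Astl and Cd9 were higher in growing oocytes by the test across all genes, and Izumo1r did not pass. Changes are limma log2 fold changes of TPM + 1, and a gene passed at an adjusted p under 0.05 over the 14153 genes tested. Across those genes 16.6% passed as higher, 54% as lower and 70.6% in either direction, and the median change was -0.67, against 0.99 for the 6 genes. The growing libraries were above the non-growing ones without overlap for these 5 genes and below them for Izumo1r, as they were for 22.5% and 66.2% of all genes tested. The sum of 7 immune markers moved with the same groups, at 1.91 and 1.99 TPM before growth and 13.5 and 13.6 TPM after it in control. Both that were tested (Cd68 and C1qb) rose in both genotypes. In the control growing libraries C1qb was at 10.7 and 11.05 TPM and Cd68 at 2.81 and 2.38 TPM. No other marker of the 7 reached 1 TPM there, and Adgre1, C1qa and Lyz2 were at 0 in both libraries. The granulosa sum was 5.91 and 6.89 TPM before growth and 10.1 and 9.5 TPM after it in control. Of the 4 granulosa markers tested, Nr5a2 rose and Gatm fell in both genotypes, and the Gatm call in control was lost with trimmed-mean scaling. The stroma sum was 2.68 and 2.46 TPM before growth and 0.73 and 0.38 TPM after it in control. Dcn, the only stroma marker tested, fell in both genotypes. The part of these markers in the result was not tested.

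**Figure D1:**
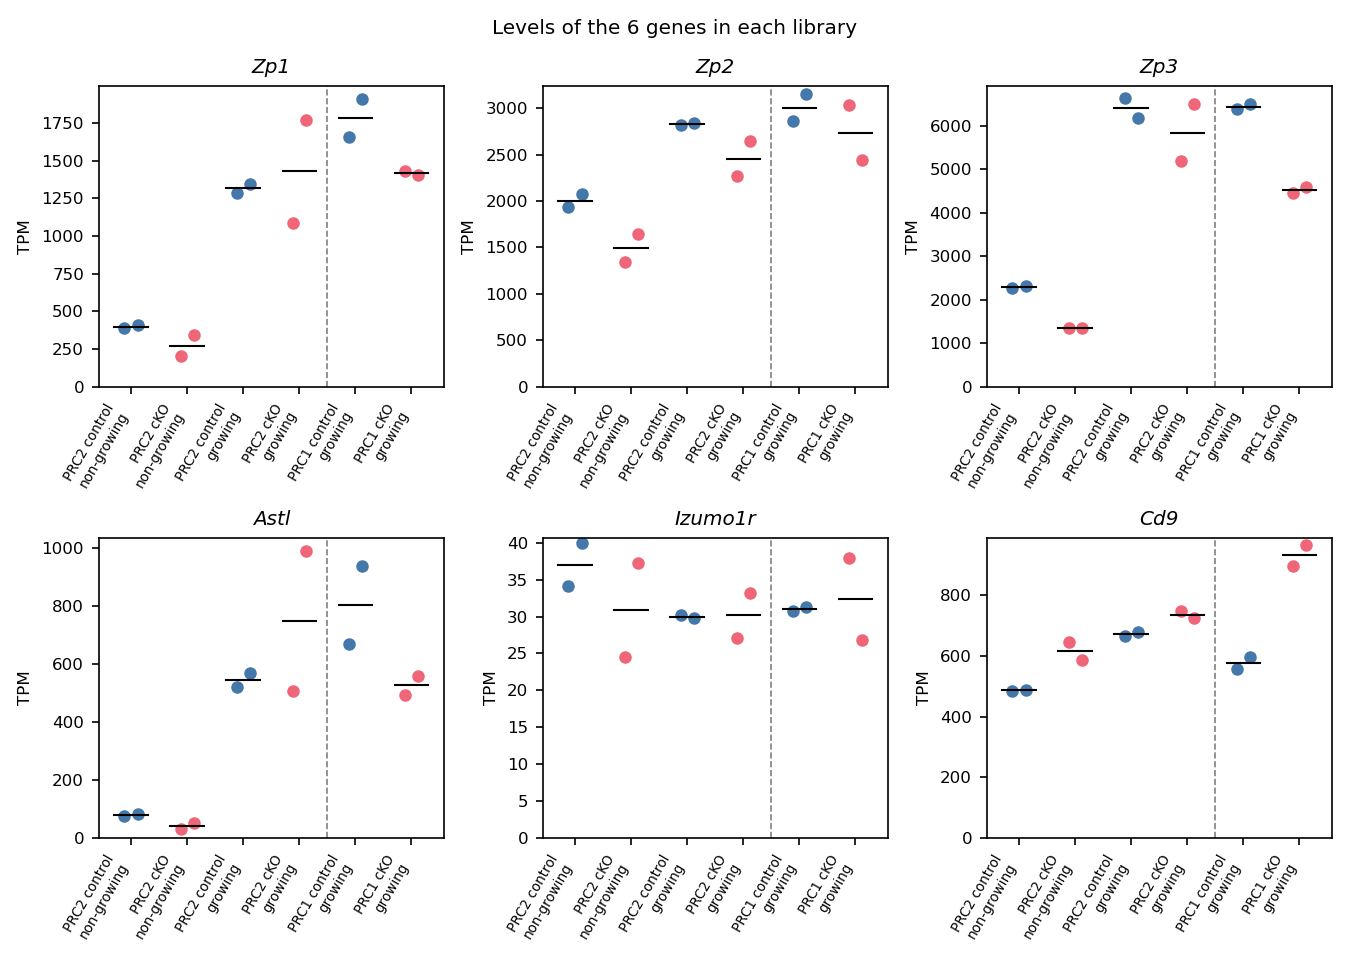
TPM of each of the 6 genes in the 12 libraries, with 1 point per library, blue for control and red for cKO, and a line at the mean of the 2 libraries of a group. The dashed line separates the 2 tables, which were normalized separately. Zp1, Zp3 and Astl stand far higher in growing than in non-growing oocytes, while Izumo1r stays between 24.5 and 39.9 TPM in all 12 libraries.

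Zp3 stood at 2256 and 2316 TPM in control non-growing oocytes and at 6643 and 6174 TPM in control growing oocytes. Both growing libraries were above both non-growing libraries, and the group means differed 2.80-fold. The log2 change was 1.49 (SE 0.107, 95% confidence interval 1.23 to 1.74, limma adjusted p = 3.63e-05). Zp1 was at 388 and 407 TPM before growth and at 1288 and 1346 TPM after it, a log2 change of 1.73 (SE 0.289, limma adjusted p = 0.00158). Zp1 and Zp3 thus rose by similar amounts, and their groups did not overlap. Zp2 was at 1936 and 2072 TPM before growth and at 2819 and 2846 TPM after it, a log2 change of 0.50 (SE 0.116, limma adjusted p = 0.00717). Zp2 rose less than the other zona genes in these values, 1.41-fold in the means, and its rise was not called after quantile normalization, where the change was 0.027 (limma adjusted p = 0.896).

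Astl, which encodes ovastacin, had the largest log2 change of the 6 genes in this comparison. It was at 75.5 and 84.2 TPM in control non-growing oocytes and at 520.1 and 568 TPM in control growing oocytes. The groups lay far apart, 6.81-fold in the means, with a log2 change of 2.75 (SE 0.351, limma adjusted p = 0.000429). Cd9, a tetraspanin of the egg surface, was at 486 and 488 TPM before growth and at 666 and 679 TPM after it. Each pair agreed closely and the groups did not overlap, a log2 change of 0.46 (SE 0.0718, limma adjusted p = 0.00107). Izumo1r, the receptor for sperm IZUMO1, was at 34.1 and 39.9 TPM before growth and at 30.15 and 29.8 TPM after it. Its growing libraries were both below its non-growing ones, yet the change of -0.29 did not pass (SE 0.209, limma adjusted p = 0.246) and turned positive under all 3 other scalings, at 0.29, 0.42 and 0.19 with quantile, trimmed-mean and protein-coding scaling. Relative to the median of all genes, which those scalings moved from -0.67 to -0.22, -0.10 and -0.31, Izumo1r was higher by 0.38 as deposited and by 0.50 to 0.52 under the other scalings. On the same relative scale Zp3 was higher by 2.16 as deposited and by 0.74, 2.32 and 2.29, and Cd9 by 1.14 as deposited and by 1.2, 1.3 and 1.27.

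**Figure D2:**
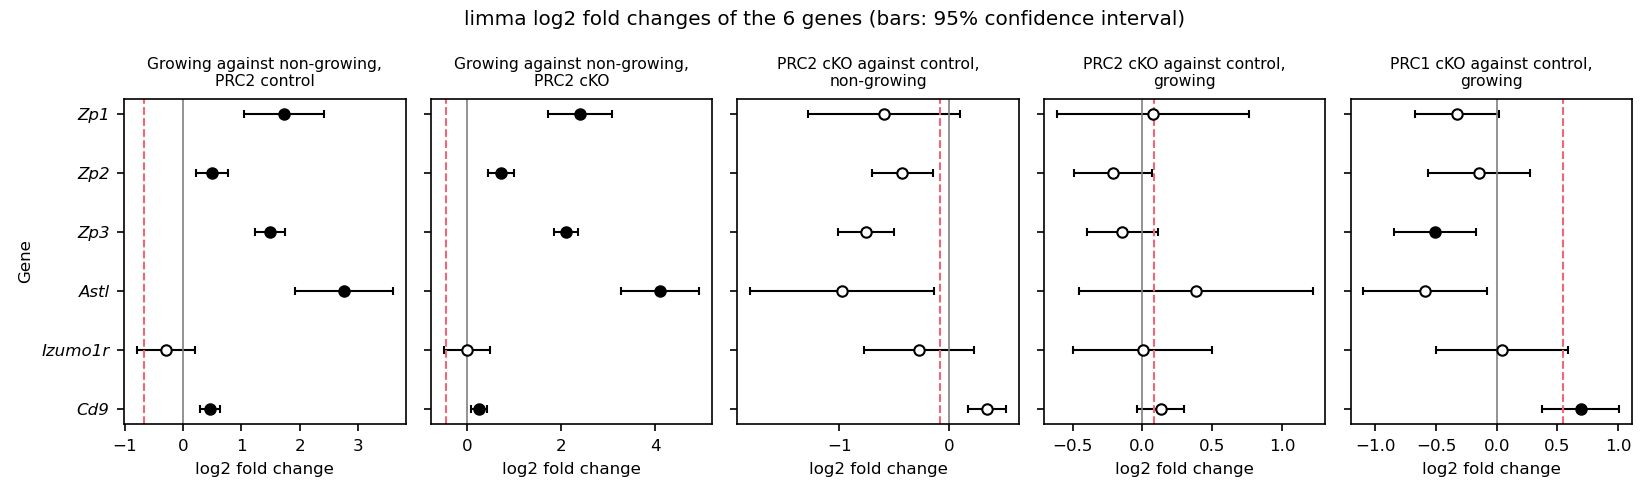
limma log2 fold changes of the 6 genes in 5 comparisons, with 95% confidence intervals. Filled points passed at an adjusted p under 0.05, the grey line marks no change and the red dashed line the median of all genes tested. The horizontal scales differ between the panels. In both comparisons of growing with non-growing oocytes 5 points are filled, and in PRC1 cKO only Zp3 and Cd9 are.

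The same 5 genes passed as higher in growing oocytes that lacked Eed, where 20.1% of all genes passed as higher, 46% as lower and 66.1% in either direction, 25.2% were higher without overlap, and the median change of all genes was -0.45. In PRC2 cKO, Zp3 was at 1356 and 1351 TPM before growth and at 5178 and 6483 TPM after it, a log2 change of 2.10 (SE 0.107, limma adjusted p = 1.08e-05). Zp1 was at 201 and 342 TPM before and at 1088 and 1772 TPM after, a change of 2.40 (limma adjusted p = 0.000343). Both genes stood clear of their non-growing values. The cKO libraries of a group lay further apart than the control ones, except for Zp3 before growth. Astl was at 30.2 and 53.4 TPM before and at 508 and 989 TPM after, a change of 4.11 (limma adjusted p = 6.92e-05). Zp2 was at 1348 and 1649 TPM before and at 2267 and 2646 TPM after, a change of 0.72 (limma adjusted p = 0.00145). Cd9 was at 648 and 588 TPM before and at 747 and 724 TPM after, a change of 0.25 (limma adjusted p = 0.0181). The Cd9 groups were close but did not overlap, and the call was lost in 4 alternatives, with a limma adjusted p of 0.107 without replicate 2 of the cKO non-growing libraries, 0.0536 without replicate 1 of the cKO growing libraries, 0.0876 without the trend in eBayes and 0.0777 in a fit of the groups compared alone. Izumo1r, at 24.5 and 37.3 TPM before and 27.0 and 33.25 TPM after, overlapped between stages and had a change of -0.013 (limma adjusted p = 0.963), positive under all 3 other scalings (0.35, 0.45 and 0.47).

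In non-growing oocytes, loss of Eed went with lower values of the zona genes and Astl, but none of the 6 genes passed the test across all genes. That test called 0.311% of the genes, 44 of 14153, and the change of Zp3 came nearest of the 6. Without adjustment, 4 of the 6 limma p-values were under 0.05, as were 2316 of the 14153 over all genes. The cKO libraries were both below both controls for Zp1, Zp2, Zp3 and Astl, both above for Cd9 and overlapping for Izumo1r, while among all genes tested 38.1% were lower and 20.3% higher without overlap. The median change was -0.51 for the 6 genes and -0.086 for all genes. Marker sums differed between the same groups without overlap. The 7 oocyte markers summed to 1175 and 1403 TPM in cKO and to 1644 and 1743 TPM in control, and 1 of them, Oosp1, passed, as lower. The immune sum was 1.01 and 0.58 TPM in cKO against 1.91 and 1.99 TPM, the granulosa sum 9.28 and 7.55 against 5.91 and 6.89 TPM, and the stroma sum 4.99 and 3.76 against 2.68 and 2.46 TPM, and no granulosa, stroma or immune marker passed. The part of these markers in the values was not tested.

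Zp3 gave the tightest pairs, 1356 and 1351 TPM in cKO against 2256 and 2316 TPM in control. The control level was 1.69-fold the cKO level, and the log2 change was -0.76 (SE 0.107, 95% confidence interval -1.01 to -0.50, limma adjusted p = 0.0585). This adjusted p ranged from 0.0118 to 0.399 over 18 alternatives and was under 0.05 in 5 of them, among them quantile normalization, a pseudocount of 5 and a fit of the non-growing libraries alone. It was also under 0.05 without either replicate of the cKO growing libraries, at 0.0141 and 0.0144. The change of Zp3 was negative in all 18 alternatives. In rank among protein-coding genes Zp3 stood at 62 and 59 in cKO against 19 and 19 in control.

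The other zona genes varied more between the cKO libraries. Zp2 was at 1348 and 1649 TPM in cKO against 1936 and 2072 TPM in control, a change of -0.43 (SE 0.116, limma adjusted p = 0.187). Zp1 was at 201 and 342 TPM against 388 and 407 TPM, a change of -0.60 (SE 0.289, limma adjusted p = 0.348). Replicate 1 of the cKO was the lower library for Zp1, Zp2, Astl and Izumo1r, while the Zp3 values were nearly equal. Astl was at 30.2 and 53.4 TPM against 75.5 and 84.2 TPM, a change of -0.97 with a wide interval of -1.81 to -0.14 (limma adjusted p = 0.267). Izumo1r was at 24.5 and 37.3 TPM against 34.1 and 39.9 TPM, a change of -0.28 (limma adjusted p = 0.522) that was 0.014 without replicate 1 of the cKO. Cd9 went the other way, at 648 and 588 TPM against 486 and 488 TPM, a change of 0.34 (SE 0.0718, limma adjusted p = 0.121). In the cKO the order of levels changed in place: Zp2 had the higher mean and overlapped with Zp3, and Astl overlapped with Izumo1r.

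In growing oocytes without Eed, none of the 6 genes passed, and the test called 0.17% of all genes. Without adjustment, 0 of 6 limma p-values were under 0.05, beside 1407 of 14153 over all genes. Zp2 was lower without overlap, at 2267 and 2646 TPM against 2819 and 2846 TPM, a change of -0.21 (SE 0.116, limma adjusted p = 0.589). Cd9 was higher without overlap, at 747 and 724 TPM against 666 and 679 TPM, a change of 0.13 (limma adjusted p = 0.589) that was -0.027 with trimmed-mean scaling. Among all genes tested 13% were lower and 23.5% higher without overlap. Zp3, at 5178 and 6483 TPM against 6643 and 6174 TPM, overlapped with control, a change of -0.14 with a 95% interval of -0.40 to 0.11 (limma adjusted p = 0.648). Zp1, Astl and Izumo1r also overlapped, with changes of 0.076, 0.38 and 0.00048 and intervals of -0.61 to 0.76, -0.45 to 1.22 and -0.50 to 0.50. Replicate 2 of the cKO held the higher values of Zp1 and Astl, at 1772 and 989 TPM against 1088 and 508 TPM in replicate 1, and without it the changes were -0.28 and -0.099.

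Whether the response to Eed loss differed between the stages was tested directly, which is the same contrast as the difference of the growth changes between genotypes. No gene of the 6 passed, and 0.0989% of all genes did. Without adjustment, 2 of 6 limma p-values were under 0.05, beside 2230 of 14153 over all genes. For Zp3 the cKO change in growing oocytes exceeded that in non-growing oocytes by 0.61 (SE 0.151, 95% confidence interval 0.25 to 0.97, limma adjusted p = 0.305). Without replicate 1 of the cKO growing libraries, the lower one for Zp3, this difference was 0.77 and passed (limma adjusted p = 0.0363), in a fit that called 922 of 13987 genes against 14 of 14153 with all libraries. For Astl it was 1.35 (SE 0.496, limma adjusted p = 0.305) and for Zp1 0.67 (SE 0.409, limma adjusted p = 0.416). Cd9 gave -0.21, Zp2 0.22 and Izumo1r 0.28, with limma adjusted p-values of 0.343, 0.504 and 0.631, and the Zp2 value turned to -0.039 with trimmed-mean scaling. The median difference over all genes was 0.16, and scalings moved it to between -0.043 and 0.17.

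In the PRC1 cKO, Zp3 was lower and Cd9 higher than in the Ring1-null control, and the other 4 genes did not pass. Here 47.8% of 14941 genes passed, 41.3% as higher and 6.45% as lower, and the median change of all genes was 0.55 against -0.23 for the 6 genes. A count of 2 of 6 called is no larger a share than that of all genes. Zp3 stood at 6385 and 6487 TPM in control and at 4458 and 4595 TPM in cKO. Both cKO libraries lay below both controls, and the change was -0.51 (SE 0.131, 95% confidence interval -0.84 to -0.17, limma adjusted p = 0.0290). Cd9 stood at 557 and 598 TPM in control and at 898 and 967 TPM in cKO. Both cKO libraries lay above both controls, and the change was 0.69 (SE 0.124, limma adjusted p = 0.0106), which became -0.046 with trimmed-mean scaling.

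Astl was at 670.1 and 938 TPM in control and at 495 and 559 TPM in cKO, a change of -0.59 (SE 0.198, limma adjusted p = 0.0599). Zp1 was at 1659 and 1911 TPM in control and at 1435 and 1407 TPM in cKO, a change of -0.33 (SE 0.136, limma adjusted p = 0.103). Neither gene's groups overlapped, so 3 genes with Zp3 were lower without overlap, as were 15.2% of all genes tested, and 1, Cd9, was higher without overlap, as were 62.3%. Zp2 was at 2866 and 3150.2 TPM in control and at 3037 and 2438 TPM in cKO, and Izumo1r at 30.8 and 31.25 TPM and at 37.9 and 26.9 TPM. Both genes overlapped between the groups. Zp2 had a change of -0.14 (limma adjusted p = 0.502), which was 0.17 with quantile normalization, and Izumo1r one of 0.041 (limma adjusted p = 0.885), which was -0.35, -0.67 and -0.19 under the other scalings. In the PRC1 control Astl stood above Cd9, and in the PRC1 cKO Cd9 stood above Astl, in both cases without overlap.

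These PRC1 values depended on how the libraries were put on a common scale. The median of all genes moved from 0.55 as deposited to 0.37 with protein-coding scaling, -0.075 with trimmed-mean scaling and -0.042 with quantile normalization. Relative to that median Zp3 was lower by -1.06 as deposited, -1.12 with protein-coding, -1.17 with trimmed-mean and -0.083 with quantile scaling. Relative to it Astl stood at -1.14, -1.20, -1.25 and -0.72 and Zp1 at -0.87, -0.93, -0.99 and -0.23 in the same order, and Cd9 at 0.14, 0.083, 0.029 and 0.72. Of the 6 genes, 5 were called with trimmed-mean scaling, all lower, with Cd9 the exception, in a fit that called 3482 of 14941 genes as lower and 3169 as higher. With protein-coding scaling 4 were called, Zp3, Zp1 and Astl lower and Cd9 higher, beside 1512 of all genes lower and 5052 higher. With quantile normalization 2 were called, Astl lower (limma adjusted p = 0.0256) and Cd9 higher, beside 2636 of all genes lower and 2722 higher. The limma adjusted p of Zp3 was 0.426 there, 0.0686 without a filter, 0.0544 without the trend in eBayes and 0.0863 with a replicate block. The Zp3 call was lost in all of these. It was also lost without replicate 1 or replicate 2 of the PRC1 control, at limma adjusted p-values of 0.282 and 0.288, and the Cd9 call was lost there too, at 0.105 and 0.0552.

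**Figure D3:**
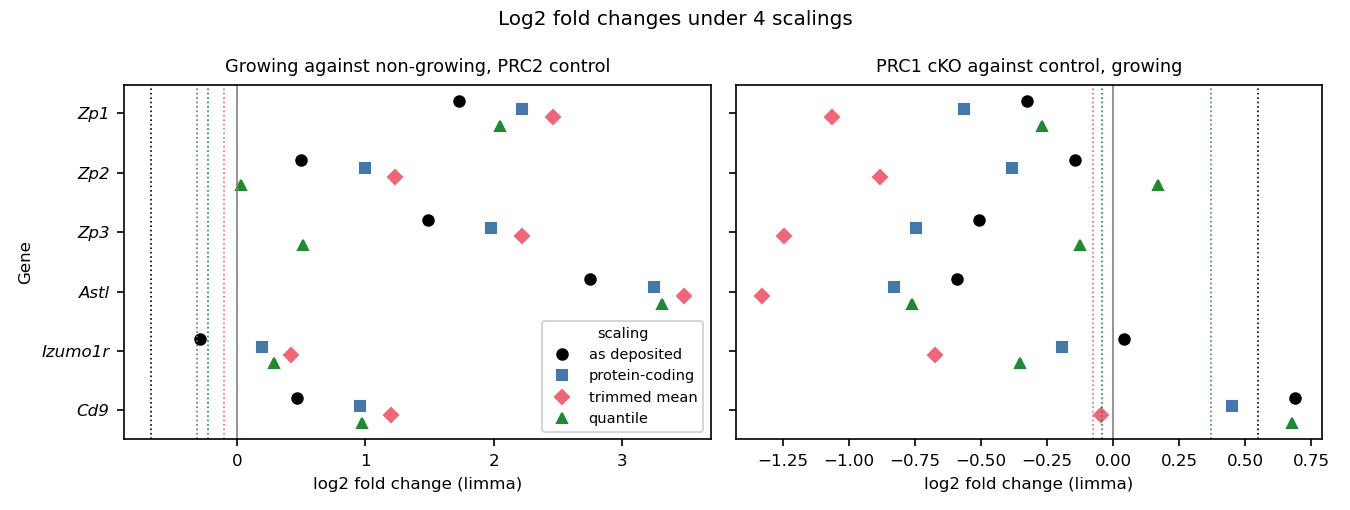
limma log2 fold changes of the 6 genes as deposited and under 3 other scalings, for growing against non-growing PRC2 control oocytes and for PRC1 cKO against control. Dotted lines give the median of all genes tested in the colour of each scaling, 0.55 as deposited and -0.075 with trimmed-mean scaling in PRC1 cKO. Astl, Zp1 and Zp3 lie left of zero under all 4 scalings in PRC1 cKO, and Cd9 crosses zero with trimmed-mean scaling.

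Markers of other cells differed between the PRC1 groups, as they did in part between the PRC2 groups. The 13 granulosa markers summed to 9.71 and 13.2 TPM in PRC1 control and to 31.7 and 53.1 TPM in PRC1 cKO, and 4 of the 5 that were tested rose (Kitl, Gatm, Inha and Inhba). Of all genes tested 41.3% passed as higher. Of the 13, 6 reached 1 TPM in each PRC1 cKO library, against 2 and 3 in the control libraries. Among the others, Foxl2 was at 0 in both controls and at 0.19 and 0.14 TPM in cKO, and Amh reached no more than 0.24 TPM in any library. The 7 immune markers summed to 14.2 and 15.2 TPM in control and to 36.7 and 43.2 TPM in cKO, and endothelial markers to 5.96 to 7.30 and 9.47 to 12 TPM. Of those tested, 1 of 2 immune markers (C1qb) and 2 of 3 endothelial markers (Tek and Cldn5) passed as higher. The Tek call was lost under all 3 other scalings. Of the 7 immune markers only 2 reached 1 TPM in each PRC1 library. In growing PRC2 oocytes the immune sum was 4.83 and 7.14 TPM in cKO against 13.5 and 13.6 TPM in control, and the granulosa sum 9.5 to 10.1 TPM in control and 10.2 to 12.3 TPM in cKO. Stroma markers summed to 0.16 and 0.64 TPM in PRC1 control and to 2.04 and 4.52 TPM in PRC1 cKO, and to no more than 4.99 TPM in any library. Red cell markers summed to 0.25 and 0.85 TPM in PRC1 control and to 2.4 and 2.38 TPM in PRC1 cKO. No stroma or red cell marker passed the filter on low values in the PRC1 table. The 7 oocyte markers summed to 6426 and 6887 TPM in PRC1 control and to 3372 and 3529 TPM in cKO, a sum that is mostly Gdf9, which went from 4864 and 5225 TPM to 1572 and 2205 TPM. Of the 7, Gdf9, Bmp15 and Oosp1 fell and Dazl and Ddx4 rose, with a median change of 0.64 against 0.55 for all genes. The part of these markers in the results was not tested.

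Ratios within a library do not depend on the factor that scales the library. Zp2 stood at 0.858 and 0.895 of the Zp3 level in PRC2 control non-growing oocytes and at 0.424 and 0.461 in growing ones. In PRC2 cKO the ratio was 0.994 and 1.22 before growth and 0.438 and 0.408 after it. Zp2 and Zp3 thus had more equal levels before growth than after it in both genotypes, and the stages did not overlap. In the PRC1 table Zp2/Zp3 was 0.449 and 0.486 in control and 0.681 and 0.531 in cKO. With 2 libraries against 2 the smallest p an exact two-sided permutation test can give is 0.333, which all of these comparisons gave except cKO against control in growing PRC2 oocytes (0.667).

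The ratio of Cd9 to Zp3 was examined after the values had been seen. It was 0.215 and 0.211 in PRC2 control and 0.478 and 0.435 in PRC2 cKO non-growing oocytes, a 2.14-fold difference. In the PRC1 table it was 0.0872 and 0.0921 in control and 0.201 and 0.210 in cKO, a 2.30-fold difference. The cKO libraries were above their controls without overlap in both, while in growing PRC2 oocytes, at 0.1002 and 0.110 in control and 0.144 and 0.112 in cKO, they were above by 1.21-fold. Each gave the smallest exact permutation p of 0.333. Zp1/Zp3 was 0.172 and 0.176 before growth and 0.194 and 0.218 after it in PRC2 control, a difference of 1.18-fold without overlap. Astl/Zp3 went from 0.0335 and 0.0364 before growth to 0.0783 and 0.0920 after it in control. It was 0.105 and 0.145 in PRC1 control and 0.111 and 0.122 in PRC1 cKO, which overlapped. Izumo1r/Cd9 was 0.0701 and 0.0819 before growth and 0.0453 and 0.0439 after it in PRC2 control. In PRC2 cKO it was 0.0379 and 0.0634 before growth, below control without overlap, and 0.0362 and 0.0459 after it, overlapping with control. In the PRC1 table it was 0.0553 and 0.0523 in control and 0.0422 and 0.0278 in cKO, without overlap.

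**Figure D4:**
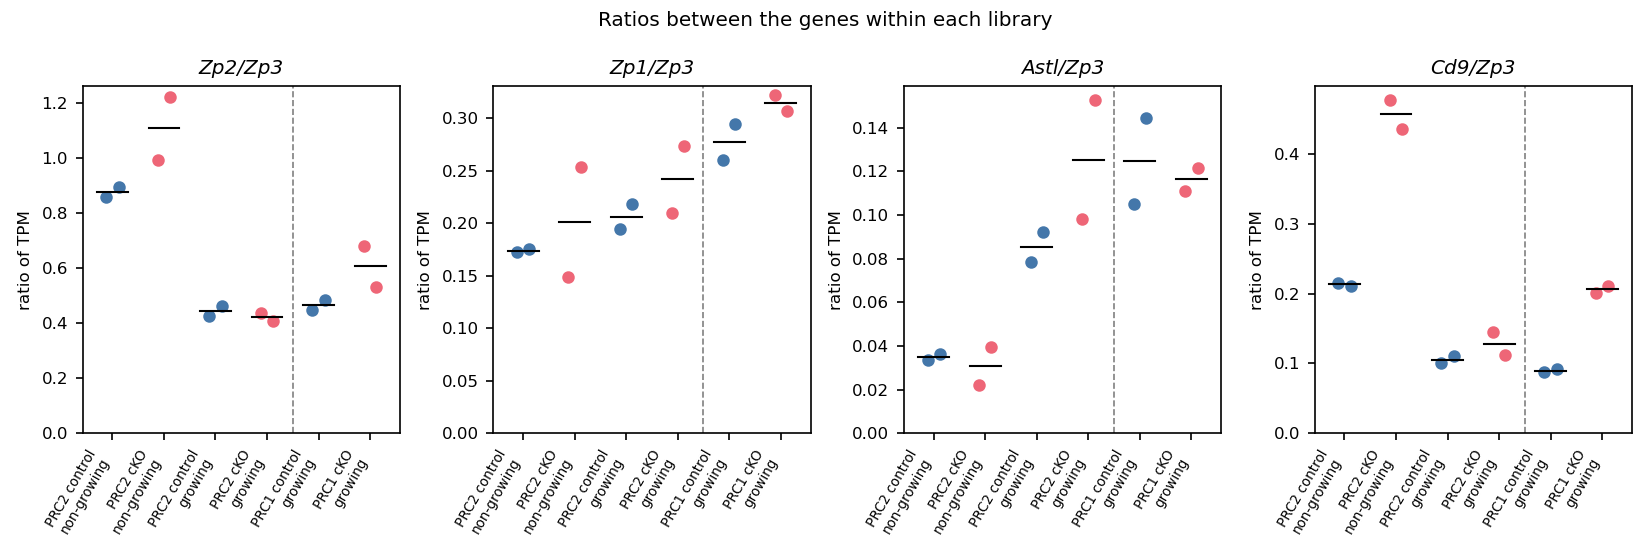
Ratios of TPM between genes within each of the 12 libraries, with 1 point per library, blue for control and red for cKO, and a line at the group mean. Zp2/Zp3 falls from 0.876 to 0.443 in the means between control non-growing and growing oocytes, and Cd9/Zp3 is higher in cKO than in control in every pair of groups.

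Gene profiles most like those of the 6 were found among 7545 other genes by the root-mean-square difference of log2(TPM + 1) values centred over the 8 PRC2 libraries. Nearest to Zp3 were Txnrd1 at 0.0893 and Unc45a at 0.123, and nearest to Zp2 were Pofut2 at 0.0927 and Tcaim at 0.0946. Nearest to Zp1 were Lypd3 at 0.142 and Grhl1 at 0.145, and to Astl were Klf17 at 0.233 and Icosl at 0.269. Izumo1r was nearest to Rtkn2 at 0.0754 and Shb at 0.0825, and Cd9 to Ccdc138 at 0.0316 and Chmp1b at 0.0741. Among the 6 genes themselves the nearest pair was Zp1 and Zp3, at 0.275. Zp2 lay at 0.347 from Cd9, 0.399 from Izumo1r and 0.610 from Zp3. The 8 libraries share 4 groups, so these values mostly describe how genes differ between those groups.

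As deposited, most transcription regulators of the zona genes moved against the zona genes themselves in the growth comparison. Of 9 such regulators, 8 fell and none rose from non-growing to growing PRC2 control oocytes, with a median change of -0.98 against -0.67 for all genes, of which 54% passed as lower and 16.6% as higher. Figla was at 966 and 992 TPM before growth and at 362 and 302 TPM after it, a change of -1.56 (limma adjusted p = 2.50e-05). Sohlh1 and Sohlh2, germ-cell basic helix-loop-helix factors, fell by 2.83 and 2.84 on the log2 scale, and Tcf12, a partner class for such factors, by 0.98. The counts depended on scaling, with 4, 3 and 5 lower and 1, 1 and 0 higher under quantile, trimmed-mean and protein-coding scaling. Of all 14153 genes 5116, 4279 and 5480 were lower and 3520, 3925 and 3302 higher under those scalings. Figla, Sohlh1 and Sohlh2 fell under all 3, and the Tcf12 call was lost with quantile and trimmed-mean scaling. In PRC2 cKO, 5 of the 9 fell and none rose, beside 46% of all genes that passed as lower and 20.1% as higher. There Figla was at 1281 and 1168 TPM before growth and 437 and 415 TPM after it. None of the 9 passed for Eed loss at either stage. Figla had changes of 0.32 and 0.37 there (limma adjusted p = 0.232 and 0.360).

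In PRC1 cKO 5 of the 9 regulators were higher and none was lower, a median change of 0.77 against 0.55 for all genes, of which 41.3% passed as higher and 6.45% as lower. Figla was at 282 and 382 TPM in control and at 683 and 630 TPM in cKO, a change of 1.00 (SE 0.183, limma adjusted p = 0.0111), while Zp3 was lower in the same libraries. Sohlh1 was at 89.97 and 157 TPM in control and at 986 and 598 TPM in cKO, a change of 2.68 (limma adjusted p = 0.00505), and Sohlh2 changed by 1.56 and Tcf12 by 0.99. With trimmed-mean scaling Figla stood at 0.26 (limma adjusted p = 0.252), and 2 of the 9 were higher and 2 lower. Of all 14941 genes 3169 were higher and 3482 lower with that scaling. Leaving out a library gave between 2 and 6 higher.

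Genes around zona processing and secretion rose with growth in part. Of 8, 4 rose and 2 fell in PRC2 control (5 and 2 under each of the 3 other scalings). Among all genes 16.6% passed as higher and 54% as lower. Under quantile, trimmed-mean and protein-coding scaling 3520, 3925 and 3302 of 14153 genes were higher and 5116, 4279 and 5480 lower. The rises among the 8 were led by the oocyte-secreted Oosp genes. Oosp1 went from 6.33 and 7.37 TPM to 262 and 333 TPM, a change of 5.24 (limma adjusted p = 2.38e-06), Oosp2 changed by 4.16 and Oosp3 by 5.24. C1galt1, which builds the core of many O-glycans, fell from 3.35 and 3.16 TPM to 0.74 and 0.87 TPM. With Eed loss in non-growing oocytes, 1 of the 8 passed, beside 0.311% of all genes. This was Oosp1, at 2.29 and 1.83 TPM against 6.33 and 7.37 TPM, a change of -1.36 (limma adjusted p = 0.0294) that lost its call with quantile and trimmed-mean scaling (0.0555 and 0.0589). In PRC1 cKO Oosp1 fell to 40.7 and 66.6 TPM from 318 and 297 TPM, a change of -2.54 (limma adjusted p = 0.00291), and Oosp3 changed by -3.08. In all, 2 of the 8 rose and 2 fell, against 1 higher and 5 lower with trimmed-mean scaling. Of all genes 41.3% passed as higher and 6.45% as lower, and 3169 and 3482 of 14941 genes did with trimmed-mean scaling. Pcsk6, a proprotein convertase, rose by 2.05 on the log2 scale and C1galt1 by 0.81, though C1galt1 stood at -0.082 with quantile normalization.

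On the egg membrane, the tetraspanin gene Cd81, related to Cd9, went the other way from Cd9 with growth. Cd81 was at 110 and 121 TPM before growth and at 18.9 and 15.8 TPM after it in PRC2 control, a change of -2.67 (limma adjusted p = 4.82e-05). Of the 7 membrane partners tested, Itga9 rose by 0.86 and Cd81 and Itgb1 fell, while trimmed-mean scaling gave 4 higher and 1 lower and ended the Itgb1 call. Of all genes 16.6% passed as higher and 54% as lower, and 3925 and 4279 of 14153 genes did with trimmed-mean scaling. In PRC1 cKO 3 of 8 rose, a share below the 41.3% of all genes that did, but 1 to 2 when a library was left out, 1 with quantile normalization, and 2 higher and 2 lower with trimmed-mean scaling. Among all 14941 genes 2722 were higher with quantile normalization, and 3169 were higher and 3482 lower with trimmed-mean scaling. Cd81 was at 13.4 and 21.4 TPM in control and at 214 and 185 TPM in cKO, a change of 3.48 (SE 0.250, limma adjusted p = 0.00212), larger than that of Cd9 in the same libraries. Igsf8, which binds Cd9 and Cd81, changed by 1.37 and the integrin gene Itgb1 by 0.95, and both lost the call with quantile normalization.

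Among 13 genes of the cortical granules and the block to polyspermy, where ovastacin is stored and acts, 5 rose and 6 fell with growth in PRC2 control (7 and 4 with trimmed-mean scaling). Of all genes 16.6% passed as higher and 54% as lower, and 3925 and 4279 of 14153 genes did with trimmed-mean scaling. Nlrp14 rose from 975 and 940.3 TPM to 2219 and 2645 TPM, while Napa, Napg and Rab3a of the fusion machinery changed by -1.97, -1.10 and -1.39. In PRC1 cKO 3 of 13 fell and 1 rose, beside 6.45% of all genes that passed as lower and 41.3% as higher. Plat, the tissue plasminogen activator, was at 1351 and 1288 TPM in control and at 242 and 320 TPM in cKO, a change of -2.24 (limma adjusted p = 0.00225). Nlrp14 and Nlrp5 changed by -0.79 and -0.47 and Napa by 0.80. The Napa call was lost under all 3 other scalings, and the Nlrp5 call with quantile normalization (-0.30, limma adjusted p = 0.122) and without either PRC1 control library. With trimmed-mean scaling 9 of the 13 were lower and none higher, and leaving out a library gave 1 to 3 lower. Among all genes trimmed-mean scaling called 3482 of 14941 lower and 3169 higher. None of the 13 passed for Eed loss at either stage as deposited. With quantile normalization 1, Nlrp5, was lower in non-growing oocytes, as were 27 of 14153 genes. The summed level of the 13 was 2784 and 3088 TPM in cKO and 6013 and 6136 TPM in control non-growing oocytes.

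Of the egg activation genes, 4 of 10 rose and 2 fell with growth in PRC2 control (7 and 2 under each of the 3 other scalings). Among all genes 16.6% passed as higher and 54% as lower. Under quantile, trimmed-mean and protein-coding scaling 3520, 3925 and 3302 of 14153 genes were higher and 5116, 4279 and 5480 lower. Of the 4 listed genes of smallest p, Trpm7 and Itpr1 fell, by -1.70 and -2.11 on the log2 scale. The others, Wee2 and Orai1, rose by 1.38 and 1.52. The oocyte kinase gene Wee2 went from 58.05 and 60.6 TPM to 148 and 166 TPM, and the calcium release channel gene Itpr1 from 28.4 and 30.3 TPM to 6.67 and 5.46 TPM. In PRC1 cKO 2 of 11 fell and none rose, against 6, 7 and 4 lower with quantile, trimmed-mean and protein-coding scaling. Of all genes 6.45% passed as lower and 41.3% as higher, and 2636, 3482 and 1512 of 14941 were lower under those scalings. Wee2 was at 173 and 172 TPM in control and at 83.2 and 82.0 TPM in cKO. Fbxo43, an inhibitor that holds the egg in meiotic arrest, changed by -0.94. Of 18 sperm-side partner genes 16 were found by symbol, and 9 of them were below 1 TPM in all 12 libraries. The highest was Dcst2 at 8.98 TPM, and Izumo1, which encodes the ligand of JUNO, reached 1.08 TPM. Fetub, whose protein is known as a serum inhibitor of ovastacin, was at 294 and 326 TPM in control non-growing and at 48.1 and 51.15 TPM in control growing oocytes, a change of -2.62 (limma adjusted p = 5.31e-06). In PRC1 cKO Fetub was at 162 and 139 TPM against 40.5 and 53.0 TPM, a change of 1.67 (limma adjusted p = 0.00360), the opposite direction to Zp3.

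**Figure D5:**
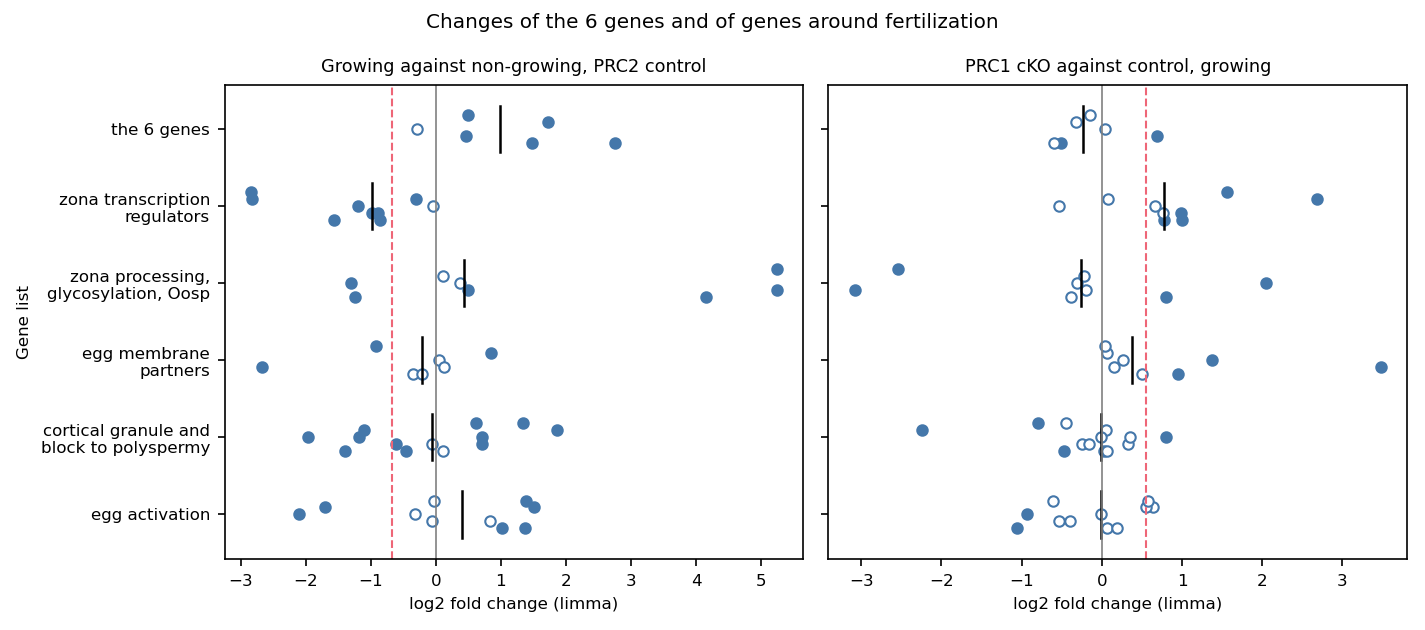
limma log2 fold changes of the 6 genes and of 5 lists of related genes, 1 point per gene, for growing against non-growing PRC2 control oocytes and for PRC1 cKO against control. Filled points passed at an adjusted p under 0.05, black lines are list medians and the red dashed line is the median of all genes tested. The 6 genes have a median of 0.99 and the transcription regulators one of -0.98 in the growth comparison, and in PRC1 cKO these medians are -0.23 and 0.77.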

How the data were processed

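RNA-seq values of 12 libraries were used. The authors deposited TPM values in 2 tables, of 8 and 4 libraries whose columns all have the same sum. The submitters' processing notes name RSEM 1.3.3, Subread 2.0.3, HISAT2, SAMtools and Trim Galore 0.6.10, and the GRCm38 build. The sources used here do not say which tool gave the TPM values or whether strand was used. Groups and replicate numbers came from the sample titles. The 2 tables were normalized separately and tests stayed within a table.

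Genes that reached 1 TPM in 2 or more libraries were fitted as log2(TPM + 1) with limma 3.58.1 in R 4.3.3 (eBayes with trend, a single fit per table, two-sided, Benjamini-Hochberg over all genes tested), after the fit was tested on simulated data. This scale understates changes of low genes. Related genes named in the text were those that passed, at most the 4 of smallest p per list, and Figla. The 6 genes and all lists were chosen with earlier results of these data known. Transcripts were matched with blastn 2.17.0, and exact permutation tests used scipy 1.17.1. Alternatives were the pseudocount (0.1 and 5), the filter, 3 scalings, eBayes without trend, a replicate block, fits of only the groups compared and each library left out.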

Additional observations from a re-analysis of the deposited data

How the results depend on the processing

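Of 612 recomputed log2 changes of the 6 genes, 558 kept their direction and their side of the threshold, 13 lost a call and 14 gained one in the same direction, and 27 changed direction. Among the last, with trimmed-mean scaling in PRC1 cKO, Cd9 also lost its call and Izumo1r also gained one. In PRC2 cKO non-growing oocytes 1 of the 6 genes was called, instead of 0, with a pseudocount of 5, with quantile normalization and in a fit of only the groups compared, and leaving out a library gave 0 to 1. The difference between stages gave 0 to 1 when a library was left out. In PRC1 cKO the count of 2 became 1 without a filter, 1 with eBayes without trend, 4 with protein-coding scaling and 5 with trimmed-mean scaling, and leaving out a library gave 0 to 3. The cause was not tested. The labels do not tie same-numbered libraries together. The correlation of their deviations was 0.26 between the cKO stages, -0.030 to 0.058 in the other PRC2 pairs and -0.27 between PRC1 groups, so the numbers were not taken as pairs. With the replicate block the PRC1 count was 1, Zp3 having a limma adjusted p of 0.0863, while the counts of the other comparisons were unaltered at 0, 0, 0, 5 and 5.

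Most changes of direction were of Izumo1r, whose change never passed as deposited. Its growth change was 0.29, 0.42 and 0.19 in control and 0.35, 0.45 and 0.47 in cKO with quantile, trimmed-mean and protein-coding scaling, and -0.30 to 0.28 in cKO when a library was left out. In PRC1 cKO it was -0.35, -0.67 and -0.19 under those scalings and -0.20 to 0.28 with a library left out. For Eed loss it was -0.57 to 0.014 in non-growing oocytes and -0.14 to 0.14 in growing ones when a library was left out, and -0.089 and -0.15 in growing oocytes with quantile and trimmed-mean scaling. Its difference between stages was -0.014 to 0.57 when a library was left out. With trimmed-mean scaling, Zp1 and Cd9 stood at -0.080 and -0.027 in PRC2 cKO growing oocytes, the Zp2 difference between stages at -0.039 and Cd9 in PRC1 cKO at -0.046. Zp2 in PRC1 cKO was 0.17 with quantile normalization and -0.30 to 0.015 when a library was left out. In PRC2 cKO growing oocytes, leaving out a library gave -0.31 to 0.018 for Zp3, -0.28 to 0.43 for Zp1 and -0.099 to 0.86 for Astl.

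With 2 libraries a group and no depth in TPM, small changes and low genes could not be resolved. A gene left with 1 library in a group was assumed to vary like the other groups.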
